A study of Mus musculus with 24 samples.

Results

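Zinc finger genes with the symbol Zfp and a number form a large family in the mouse genome, and the chromatin at their promoters was examined in germinal centre (GC) B cells. The promoters were the autosomal ATAC-seq peaks within 1000 bp of a transcription start site (TSS) of a protein-coding gene of that name in GENCODE M21 on mm10. They numbered 326 of the 65483 consensus peaks and served 307 of the 358 autosomal Zfp genes, or 85.8%. ATAC-seq counts fragments cut by a transposase that enters open DNA, so a higher count means a more accessible promoter. The study asked how heterozygous loss of the chromatin regulators Crebbp and Kmt2d, alone and combined, changes chromatin in GC B cells. GC B cells were sorted from the spleens of 8-week-old C57BL/6J mice 10 days after immunization with sheep red blood cells (SRBC), and 60000 cells went into each library. WT mice were Cg1Cre+/-, C mice were Cg1Cre+/-, Crebbp fl/+, K mice were Cg1Cre+/-, Kmt2d fl/+, and CK mice were Cg1Cre+/-, Crebbp fl/+, Kmt2d fl/+. All of them, WT included, carried the Cre recombinase, which is driven from the Cg1 immunoglobulin locus and acts in B cells that enter the GC reaction. Each mouse gave 1 library, and there were 4 mice each of WT, C and K and 5 of CK.

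Most Zfp proteins are C2H2 zinc finger proteins, in which a chain of fingers, each folded around a zinc ion, reads a stretch of DNA. Many also carry a KRAB domain, which recruits TRIM28 and, through it, the H3K9 methyltransferase SETDB1 and HP1 proteins, so that the bound sequence is packed into silent chromatin. Many KRAB zinc finger genes lie in tandem clusters, some of which hold near-identical copies. They are best known for silencing retroelements and for protecting imprinted loci. Other Zfp proteins are transcription factors, RNA binding proteins or parts of protein quality control, and the shared symbol does not make them 1 family by descent. CREBBP is a histone acetyltransferase and KMT2D a histone H3K4 methyltransferase, and both act mainly at enhancers.

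The sequences just upstream of the TSS are shown for the members on which the results turn, with a strongly accessible member and a pair that share a word for comparison. A RefSeq promoter (GRCm38.p6, the same coordinates as mm10) could be matched to 254 of the 326 members, and Zfp286 and Zfp704 were not among them. Each run holds the 150 bases before the RefSeq start in the 5′ to 3′ direction of the gene. Capitals mark GGGCGG (the GC box), CCAAT (the CCAAT box) and ACTACATT, each in either orientation. Zfp358, Zfp976 and Zfp827 were more accessible in CK than in WT, Zfp94 and Zfp52 were less accessible, and Zfp866 was among the most accessible members in WT. Zfp708 and Zfp84 are 2 of the KRAB-like genes with ACTACATT.
Zfp358 (chr8:3492988-3493137, + strand): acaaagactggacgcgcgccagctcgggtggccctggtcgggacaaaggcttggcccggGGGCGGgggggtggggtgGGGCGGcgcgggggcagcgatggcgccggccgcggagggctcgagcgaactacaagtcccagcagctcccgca
Zfp976 (chr7:42642605-42642754, - strand): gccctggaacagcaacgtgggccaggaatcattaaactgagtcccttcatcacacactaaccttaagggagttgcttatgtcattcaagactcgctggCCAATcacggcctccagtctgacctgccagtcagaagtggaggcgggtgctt
Zfp827 (chr8:79028287-79028436, + strand): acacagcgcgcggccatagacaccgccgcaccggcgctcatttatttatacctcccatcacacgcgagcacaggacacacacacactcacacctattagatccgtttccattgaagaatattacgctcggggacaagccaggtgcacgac
Zfp94 (chr7:24316667-24316816, - strand): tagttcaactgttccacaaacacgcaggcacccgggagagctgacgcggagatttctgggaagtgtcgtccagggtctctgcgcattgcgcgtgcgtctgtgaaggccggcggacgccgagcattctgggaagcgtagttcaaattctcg
Zfp52 (chr17:21535389-21535538, + strand): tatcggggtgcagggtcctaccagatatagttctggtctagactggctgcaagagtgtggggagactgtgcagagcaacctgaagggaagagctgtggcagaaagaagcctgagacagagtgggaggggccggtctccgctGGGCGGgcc
Zfp866 (chr8:69774912-69775061, - strand): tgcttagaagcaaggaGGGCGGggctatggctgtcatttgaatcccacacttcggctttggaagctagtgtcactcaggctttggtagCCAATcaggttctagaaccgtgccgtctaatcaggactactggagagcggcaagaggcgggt
Zfp708 (chr13:67081546-67081695, - strand): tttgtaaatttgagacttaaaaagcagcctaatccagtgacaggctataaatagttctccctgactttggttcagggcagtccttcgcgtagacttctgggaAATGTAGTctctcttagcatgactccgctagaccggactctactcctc
Zfp84 (chr7:29768402-29768551, + strand): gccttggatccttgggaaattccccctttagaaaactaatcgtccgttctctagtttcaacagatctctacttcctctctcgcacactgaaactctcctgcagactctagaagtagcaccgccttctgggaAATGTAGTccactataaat
The Zfp358 run was 75.3% G and C and held 2 GC boxes, whereas the Zfp976 run was 53.3% G and C and held 1 CCAAT box. In both Zfp708 and Zfp84 the shared word lay on the strand opposite to the gene.

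For 3 of the KRAB-like members, 30 bases around the CCAAT box are shown, because the box stood at a like distance from the start in each. The box began 55 bases before the start in Zfp932, 52 in Zfp976 and 62 in Zfp866, and capitals mark it.
Zfp932 (chr5:109996447-109996476, + strand): cttactggCCAATcagagcctctacgcgga
Zfp976 (chr7:42642635-42642664, - strand): ctcgctggCCAATcacggcctccagtctga
Zfp866 (chr8:69774952-69774981, - strand): tttggtagCCAATcaggttctagaaccgtg
The promoters of the KRAB-like and the other members differed in these words. A CCAAT box was found in 54.4% of the 160 KRAB-like promoters and in 30.9% of the 94 others, against 37.0% of the 12251 RefSeq promoters inside other coding promoter peaks and 37.3% of all 31396 autosomal promoters of the same 300 bases (250 before and 50 after the start). The GC box went the other way, at 36.2% of KRAB-like promoters, 61.7% of other members and 68.9% of promoters in other peaks. The longer form CCAATCAG stood in 21.2% of KRAB-like promoters and 5.81% of promoters in other peaks. ACTACATT stood in 29 KRAB-like promoters (18.1%) and in 1.3% of promoters in other peaks, and in Zfp383, Zfp566, Zfp708, Zfp84, Zfp85 and Zfp879 it was part of a shared 16-letter run. The ETS-type word CCGGAAG stood in 22% of member promoters and 18.3% of promoters in other peaks, and TATAAA in 5.91% and 5.94%. All words were searched on both strands; CCAATCAG holds CCAAT and so is counted under both. CCAATCAG and ACTACATT ranked highest of all 8-letter words by the share in KRAB-like promoters less that in promoters in other peaks. They were picked for this after the promoters had been read, so their difference is large by construction. Tandem copies also share sequence by descent, so the shares are a description and no test was made.

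Each of the 17 libraries had 17483706 to 21857738 fragments in peaks, of which 1.18% to 1.27% (216463 to 269545 fragments) fell in Zfp promoters. Pearson's correlation of log2 CPM (counts scaled to library size) across peaks between mice of 1 genotype was 0.9794 to 0.9885. Peaks on the Y chromosome that end before 5 Mb summed to 73.8 to 85.2 CPM in 9 of the 17 libraries and at most 0.0558 CPM in the others. The study states that female mice were used. Later Y peaks were left out of this sum, because they also take fragments in libraries without Y signal. The libraries with Y signal were 2 of 4 in WT, 2 of 4 in C, 3 of 4 in K and 2 of 5 in CK. The counts in CK are also given within libraries with and without it, and those in K within libraries with it. The genotype labels could not be checked at the targeted genes: the 5 peaks over Crebbp summed to 43.3 to 47.5 CPM in WT, 41.3 to 46.4 in C and 48.8 to 51.9 in CK, and the 4 over Kmt2d to 122 to 129 in WT, 124 to 132 in K and 126 to 136 in CK. None (0) of these peaks was called in a mutant genotype by edgeR or DESeq2, with 1 at an unadjusted p under 0.05 in K and in CK. All 10 GC B cell marker genes had a promoter peak, with a summed level of 846 to 928 CPM in WT, 806 to 875 in C, 847 to 862 in K and 784 to 855 in CK. None (0) of the 5 T cell marker genes had a promoter peak. Plasma cell markers (3 of 4 had a peak, not Tnfrsf17) summed to 137 to 148 CPM in WT and 145 to 153 in CK. Naive or memory B cell markers (4 of 4) summed to 118 to 124 and 112 to 126. Erythroid markers (2 of 4, not Gata1 or Hbb-bs) summed to 47.8 to 50.2 and 48.0 to 53.1. Myeloid markers (3 of 5, not Itgam or Lyz2) summed to 7.7 to 9.77 and 7.27 to 10.3. Only autosomal peaks were searched for marker genes, and each sum rests on the genes with a peak. Autosomal coding promoters other than the Zfp members took 50.8% to 52.8% of fragments in WT and 51.0% to 52.3% in C. They took 52.4% to 54.7% in K and 52.8% to 54.2% in CK. Their part in the results below was not tested. In these bulk samples, fewer open cells of a type and less open chromatin per cell cannot be told apart.

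Zfp promoters were open in GC B cells to about the degree of other coding promoters. The median member had 22.9 CPM per kb of peak in WT (quartiles 11.8 and 34.0, range 0.654 to 94.3), against 21 over the 13201 other autosomal coding promoter peaks and 4.83 over all peaks. The members were 246 to 5039 bp long with a median of 1338 bp, and 309 of them overlapped a TSS. Their GC content ran from 41.8% to 75.8% with a median of 53.4%, below the 56.8% of other promoters, and they held 4.23 CpG per 100 bp against 5.18. The peak centre lay in an intron of the gene in 125 members, in a UTR exon in 118, upstream in 75 and in another exon in 8. A KRAB A-box-like sequence was found in the protein of the gene for 191 members, and 135 had none. KRAB-like members were less GC-rich (median 51.7% against 58.2%) and a little less accessible (21.2 against 24.9 CPM per kb). The most accessible members per kb were Zfp574 (94.3), Zfp866 (89.7) and Zfp446 (89.4), and the least accessible were Zfp991 (0.654), Zfp521 (0.93) and Zfp947 (0.992). Zfp991 rested on 55 counts over all 17 libraries, whereas the median member had 10830.

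Of the 51 genes without a promoter peak, some are known from other tissues, such as Zfp42, a marker of pluripotent cells, Zfp750, a factor of epidermal differentiation, and Zfp683, which encodes Hobit of tissue-resident lymphocytes. Others stood in tandem clusters: on chromosome 4, 10 of 30 Zfp genes had a peak, whereas all 18 genes on chromosome 9, all 17 on chromosome 6 and all 16 on chromosome 5 had one. Chromosome 7 held the most Zfp genes, of which 82 of 89 had a peak. KRAB-like genes had a promoter peak in 84.2% of cases (186 of 221) and the others in 88.3% (121 of 137). Reads of near-identical copies may not have been assigned to 1 place, so the absence of a peak in a cluster says nothing certain about the gene. In addition, 5 peaks served 2 Zfp genes each, 28 were shared with a coding gene of another name (Zfp575 with Ethe1, Zfp597 with Naa60), and 24 genes had 2 member peaks.

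At the edge of the window, the 3 members farthest from a TSS were peaks of Zfp451, Zfp473 and Zfp523, 698, 842 and 966 bp away, with log2 fold changes between CK and WT of 0.087, 0.17 and -0.027. The nearest peaks outside it lay 1021 bp from Zfp423, 1112 bp from Zfp740 and 1196 bp from Zfp219, with 0.10, 0.024 and 0.24.

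Accessibility of Zfp promoters was higher in CK than in WT at 21 members and lower at 2, out of 326 (adjusted p under 0.01 in the quasi-likelihood test of edgeR, with adjustment by Benjamini-Hochberg over all 65483 peaks). Over all peaks 3.54% were called higher and 3.3% lower, and over other coding promoters 9.56% and 1.08%. Of the members 6.44% were higher, between these shares, and 0.613% were lower, below both. The largest gains, of 1.28 on the log2 scale, were at the weakly accessible promoters of the KRAB-like genes Zfp941 and Zfp114, and 10 of the 23 calls exceeded a fold change of 1.5. The DESeq2 test called 28 members higher and 3 lower, including all 21 and both of the above. It called 2603 of the 60399 peaks with an adjusted p higher and 2671 lower. When the counts were corrected within 20 bins of GC content, 14 members were called higher and 11 lower, of which 13 and 1 were shared with the uncorrected calls, so the share of gains fell from 91.3% to 56%. Over all peaks 2.58% were then higher and 3.38% lower, against 4.29% and 3.37% of members. Of other promoters 4.98% were then higher and 4.83% lower, so the members lay below them in both directions. The members then called lower included the strongly accessible Zfp574, Zfp143, Zfp687 and Zfp91. Leaving out WT replicate 3 left 15 calls and leaving out WT replicate 4 left 13, against 23. Within the libraries without Y signal (2 WT and 3 CK) there were 10 gains and 1 loss, and within those with it (2 WT and 2 CK) 1 gain and no loss. Over all 65483 peaks there were 549 gains and 505 losses without Y signal, and 196 and 293 with it.

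**Figure D1:**
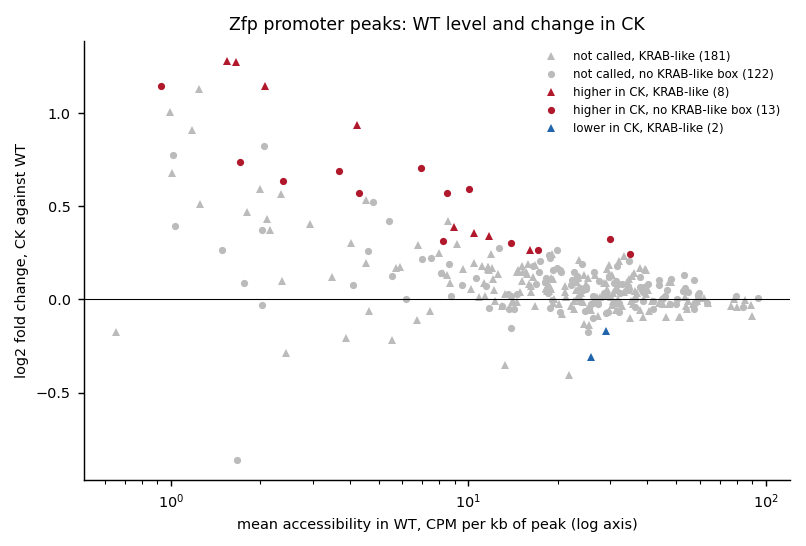
Each point is 1 of the 326 Zfp promoter peaks, with the mean WT accessibility in CPM per kb of peak on a log axis and the log2 fold change between CK and WT on the other axis; triangles are KRAB-like genes, circles the others, red and blue the members called higher and lower. The 21 gains lie mostly to the left, at low WT accessibility, and the 2 losses at -0.31 and -0.17.

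Zfp286, a KRAB-like gene with 10 fingers, had the lowest adjusted p in CK. Its promoter peak (chr11:62788847-62789820, - strand) had 5.05, 3.81, 3.84 and 3.71 CPM in WT, 6.18, 5.64, 5.86 and 6.11 in C, and 6.69, 6.17, 6.44 and 6.55 in K. The CK mice had 7.53, 9.05, 8.61, 7.52 and 6.51. Every mutant mouse lay above every WT mouse. The means were 4.11 ± 0.636 (n = 4, SD) in WT, 5.95 ± 0.247 (n = 4, SD) in C, 6.46 ± 0.218 (n = 4, SD) in K and 7.84 ± 1.00 (n = 5, SD) in CK. By edgeR the log2 fold change was 0.53 (SE 0.122, adjusted p = 0.0491) in C. It was 0.66 (SE 0.121, adjusted p = 0.00284) in K and 0.94 (SE 0.114, adjusted p = 1.29e-05) in CK. The call in CK held whichever library was left out, and the call in K was lost without WT replicate 2, 3 or 4 or K replicate 1 (0.61 to 0.64, adjusted p of 0.0102 to 0.0151 by edgeR).

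Zfp704, whose protein has 1 C2H2 finger, had a promoter peak (chr3:9608415-9611246, - strand) with 11.4, 11, 10.1 and 9.3 CPM in WT, 12.2, 10.4, 13 and 12.1 in C, and 16.4, 14.4, 14.4 and 13 in K. The CK mice had 15.9, 17.5, 17.6, 16.9 and 16.1. All K and CK mice were above all WT mice, and C overlapped WT. The log2 fold change was 0.48 (SE 0.0919, adjusted p = 0.0036 by edgeR) in K, 0.69 (SE 0.0869, adjusted p = 1.81e-05) in CK, and 0.50 (SE 0.0852, adjusted p = 0.00148) in CK against C. The call in K was lost in the GC bins and when WT replicate 3 or 4 or K replicate 1 was left out (0.41 to 0.46, adjusted p of 0.0158 to 0.0238 by edgeR).

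Zfp358 (peak at chr8:3492802-3493875, + strand), the gene with the GC-box-rich run above, had 8.62, 7.42, 6.79 and 7.09 CPM in WT and 7.83, 7.08, 8.8 and 6.69 in C, so these groups overlapped. It had 9.13, 11.4, 9.79 and 9.27 CPM in K and 13.5, 11.3, 12.8, 11.3 and 12.1 in CK, all above WT. The gain in CK was 0.71 on the log2 scale (SE 0.103, adjusted p = 7.4e-05 by edgeR) against WT and 0.68 (SE 0.102, adjusted p = 0.000623) against C.

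Zfp976 (peak at chr7:42642153-42643016, - strand), a KRAB-like gene with 18 fingers in a cluster on chromosome 7, was weakly accessible. It had 1.92, 1.72, 1.88 and 1.66 CPM in WT, 2.41, 3.34, 2.93 and 2.39 in C, and 3.56, 2.83, 2.25 and 1.94 in K. The CK mice had 2.56, 4.85, 5.02, 3.83 and 3.63. All mutant mice were above all WT mice and the spread within CK was wide. The log2 fold change in CK was 1.14 (SE 0.194, adjusted p = 0.000314 by edgeR).

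Zfp827 encodes a protein known for bringing the NuRD complex to telomeres. Its peak (chr8:79027845-79031178, + strand) had 35.9, 36.2, 34.2 and 28.0 CPM in WT, 40.8, 39.3, 26.7 and 35.7 in C, and 53.0, 38.2, 45.7 and 49.8 in K. The CK mice had 57.3, 48.5, 43.6, 51.7 and 52.4. K and CK were above WT throughout, and C overlapped WT. The difference was 0.59 (SE 0.103, adjusted p = 0.000401 by edgeR) in CK against WT and 0.51 (SE 0.102, adjusted p = 0.00461) in CK against C, and in K it was 0.48 (SE 0.108, adjusted p = 0.0108).

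**Figure D2:**
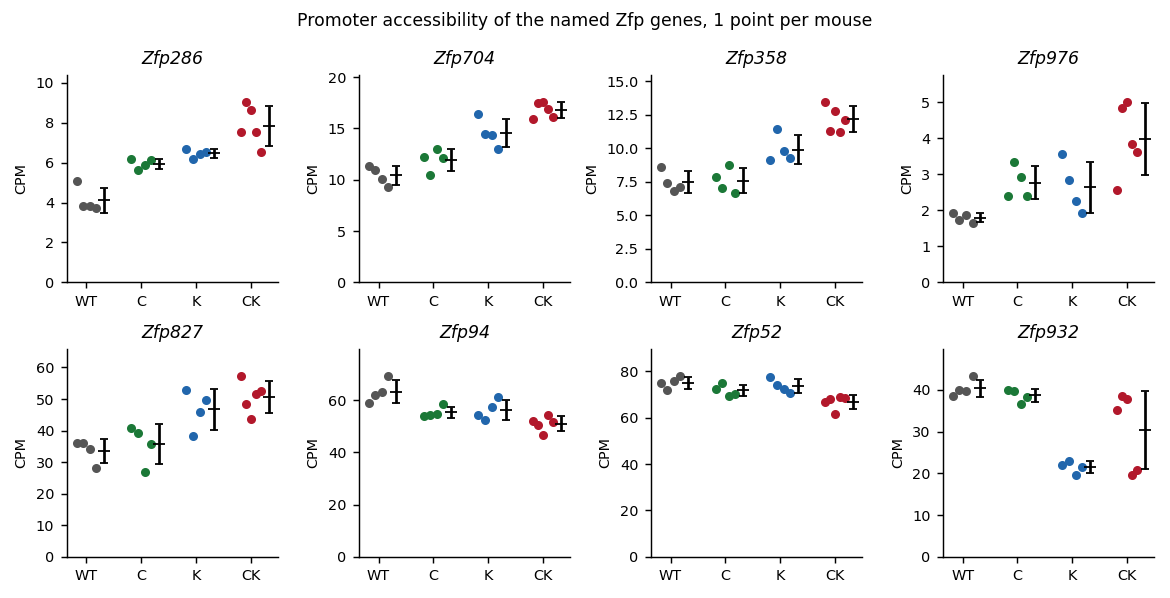
Accessibility in CPM of the promoter peaks of 8 Zfp genes, with 1 point per mouse in each genotype and bars for the mean ± SD. Zfp286, Zfp704, Zfp358, Zfp976 and Zfp827 were higher in all CK mice than in all WT mice, Zfp94 and Zfp52 were lower in all CK mice, and Zfp932 took 2 separate levels within CK.

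The 2 members that were less accessible in CK were both KRAB-like and well open in WT. Zfp94 (peak at chr7:24314726-24317182, - strand) had 59.0, 61.9, 63.1 and 69.3 CPM in WT, 53.9, 54.5, 54.7 and 58.4 in C, and 54.4, 52.6, 57.4 and 61.4 in K. The CK mice had 52.2, 50.6, 46.6, 54.2 and 51.7. All CK and all C mice were below all WT mice. The log2 fold change was -0.31 (SE 0.0538, adjusted p = 0.000398 by edgeR) in CK. Zfp52 (peak at chr17:21534355-21536938, + strand) had 71.8 to 78.0 CPM in WT, 69.4 to 75 in C, and 70.4 to 77.5 in K. The CK mice had 66.7, 68.2, 61.8, 69.0 and 68.5, so only CK lay outside the WT range in every mouse. Its log2 fold change was -0.17 (SE 0.0434, adjusted p = 0.00955 by edgeR), close to the threshold, and it was -0.11 (adjusted p = 0.114) in the GC bins. The call was also lost without WT replicate 1, 3 or 4, C replicate 1, K replicate 3 or any 1 of the CK mice (-0.18 to -0.14, adjusted p of 0.0106 to 0.0459 by edgeR).

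The other 16 gained members in CK came from several roles. Zfp521 encodes a cofactor that antagonizes EBF1 in early B-lineage cells. Its called peak (1 of 2, chr18:13970016-13971527) rose from 1.86, 1.83, 0.937 and 0.997 CPM in WT to 3.69, 4.15, 2.04, 2.94 and 2.77 in CK, with no overlap, and the log2 fold change was 1.15 (SE 0.221, adjusted p = 0.001 by edgeR). Zfp114 and Zfp941 changed by 1.28 each (adjusted p = 0.00047 and 0.000575) from 0.89 and 0.957 CPM in WT. Zfp219, a gene with 9 fingers, was called at both of its peaks: the stronger (chr14:52019197-52020740) changed from 54.0 ± 1.39 CPM (n = 4, SD) to 63.9 ± 2.65 (n = 5, SD), and the weaker from 5.97 ± 0.835 to 8.89 ± 0.291. Zfp64, a transcription factor of the MLL gene, was called at an internal start (chr2:168912207-168913839), which went from 2.79 ± 0.241 CPM (n = 4, SD) to 4.64 ± 1.02 (n = 5, SD), while its main promoter had 53.4 ± 1.86 and 55.4 ± 2.34 CPM. Without WT replicate 2 or 3 or CK replicate 1 or 2 the call was lost (0.64 to 0.72, adjusted p of 0.0102 to 0.0132 by edgeR). Zfp592, the most GC-rich member (75.8%, chr7:80992912-80994031), had 33.6 ± 4.25 CPM (n = 4, SD) in WT and 42.0 ± 3.67 (n = 5, SD) in CK. Its log2 fold change was 0.32 (SE 0.0773, adjusted p = 0.006 by edgeR), in the GC bins it was 0.129 (adjusted p = 0.131), and without WT replicate 1, 3 or 4 or CK replicate 1, 4 or 5 it was 0.26 to 0.31 (adjusted p of 0.012 to 0.0369). The remaining 9 were Zfp629, Zfp2, Zfp248, Zfp773, Zfp647, Zfp30, Zfp580, Zfp395 and Zfp575, with log2 fold changes from 0.27 to 0.63. Both Zfp219 peaks, Zfp30, Zfp395, Zfp575, Zfp580 and Zfp647 were, like Zfp592, not called in the GC bins.

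The gained members were less accessible in WT than the members not called, with medians of 8.21 and 23.6 CPM per kb, and more GC-rich, with medians of 59.4% and 53.2%. Their own log2 fold changes ran from 0.24 to 1.28 in CK, from 0.17 to 0.91 in K and from -0.084 to 0.93 in C; these comparisons share the WT libraries. Every CK mouse lay above every WT mouse at 48 members (14.7%), against 6.59% of all peaks and 14.6% of other promoters, and below at 7 (2.15%), against 6.39% and 2.52%. Chromosome 7 held 9 gains and 1 loss among 87 members, and chromosome 14 held 3 gains among 5, of which 2 were Zfp219. Just past the threshold stood Zfp958 and Zfp422, with adjusted p of 0.0101 and 0.0104 in edgeR's test.

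In K, 2 members (0.613%) were called higher and 1 (0.307%) lower against WT. Over all peaks 0.647% were called higher and 0.828% lower, and over other promoters 1.86% and 0.189%. The gained members were Zfp286 and Zfp704, described above, and the lost member was Zfp932. By DESeq2 there were 5 gains and 1 loss, against 786 and 953 of the 52783 peaks with an adjusted p. Leaving out 1 library at a time gave 1 to 4 calls of members (1 without WT replicate 3, WT replicate 4 or K replicate 1). In all, 78 members had an unadjusted p under 0.05 in K (23.9%), 72 of them higher, against 20.6% of all peaks and 26.9% of other promoters. Within the libraries with Y signal there was 1 gain and 1 loss, against 75 and 154 over all 65483 peaks. Those without it held 1 K mouse, so no calls are given, and the median log2 fold change over members was 0.124.

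Zfp932, a KRAB-like gene with 15 fingers, encodes a repressor of endogenous retroviral elements. Its promoter peak (chr5:109995625-109997470, + strand, with the CCAAT stretch above) had 38.6, 39.9, 39.6 and 43.4 CPM in WT and 40.0, 39.8, 36.6 and 38.4 in C. It had 22, 23, 19.7 and 21.6 CPM in all 4 K mice. In CK it had 35.2, 38.5 and 37.7 in replicates 1 to 3 and 19.7 and 20.9 in replicates 4 and 5, so CK fell on 2 levels, near those of WT and of K. Whether the mice differ in DNA sequence or copy number at this peak cannot be read from counts and was not tested, which also bears on the difference between K and WT. By edgeR the log2 fold change was -0.91 (SE 0.143, adjusted p = 0.000806) in K against WT, -0.85 (SE 0.143, adjusted p = 0.00231) in K against C, and -0.41 (SE 0.131, adjusted p = 0.036) in CK against WT. One of the CK libraries on the lower level had Y signal (replicate 4) and the other had none. The log2 range of Zfp932 within CK, 0.965, was the widest of the 300 members with at least 1000 counts, whose median was 0.193. Of 11 neighbouring peaks within 150 kb, 9 had at least 5 CPM in WT, and their log2 fold changes in K ran from -0.0643 to 0.237 with none (0) called by edgeR.

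**Figure D3:**
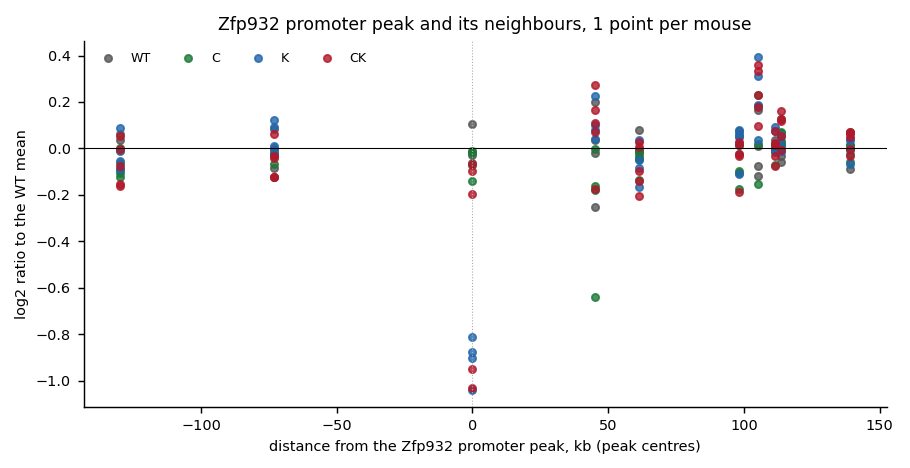
Log2 ratio of each mouse to the WT mean at the Zfp932 promoter peak (0 on the horizontal axis, in kb) and at the 9 neighbouring peaks within 150 kb with at least 5 CPM in WT, coloured by genotype. All K mice and 2 CK mice lie well below the rest at Zfp932, and the neighbours scatter around 0.

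In C, no member (0 of 326) was called by edgeR against WT, and 0.16% of all peaks were. At an unadjusted p under 0.05 by edgeR there were 23 members (7.06%), 17 of them higher. The share was 8.9% of all peaks and 8.59% of other promoters. DESeq2 also called none, with 21 at an unadjusted p under 0.05. The lowest adjusted p was that of Zfp286. The log2 fold changes ran from -0.819 to 1.16, with 157 above 0 and 169 below.

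CK was compared with each single genotype. Against C, 6 members (1.84%) were higher and none lower. Over all peaks 0.907% were higher and 0.77% lower, and over other promoters 3.24% and 0.174%. The 6 members were Zfp358, Zfp704, Zfp592, Zfp516, Zfp827 and Zfp219, given in full because they are all of the calls. Zfp592 differed by 0.41 (SE 0.0773, adjusted p = 0.00312 by edgeR), with 32.4, 32.1, 32.7 and 29.7 CPM in C and 45.4, 36.1, 41.1, 43.6 and 44.0 in CK, and it was no longer called in the GC bins (0.218, adjusted p = 0.0295) or without C replicate 2 or 4 or CK replicate 1 (0.37 to 0.40, adjusted p of 0.0111 to 0.0199). Zfp516, a transcriptional regulator known from brown fat, had 74.9 ± 1.47 CPM (n = 4, SD) in WT, 66.9 ± 3.16 (n = 4, SD) in C and 78.4 ± 4.48 (n = 5, SD) in CK, and the difference of CK from C was 0.23 (SE 0.0457, adjusted p = 0.0045 by edgeR). Zfp219 differed by 0.22 at its stronger peak (SE 0.0474, adjusted p = 0.00771 by edgeR). The 6 calls became 3 without C replicate 2 and 2 without C replicate 4 or CK replicate 1. DESeq2 called 12 members higher, and 1157 of the 47705 peaks with an adjusted p. In the GC bins 2 members (0.613%) were higher and 1 (0.307%) lower, against 0.348% and 0.559% of all peaks. Of other promoters 0.795% were higher and 0.5% lower in the GC bins. Against K, no member (0) was called by edgeR or DESeq2, and edgeR called 0.00916% of all peaks. At an unadjusted p under 0.05 by edgeR there were 26 members (7.98%), against 7.35% of all peaks and 6.27% of other promoters. The lowest adjusted p was that of Zfp945 (0.22 by edgeR), a KRAB-like gene with 9.6 ± 0.741 CPM (n = 4, SD) in K and 12.1 ± 0.326 (n = 5, SD) in CK. K differed from C at 1 member (0.307%), Zfp932, which was lower. Over all peaks 0.283% were higher and 0.505% lower, and over other promoters 0.704% and 0.129%. By DESeq2, 4 members were higher and 1 lower in K than in C, against 522 and 642 of the 47705 peaks with an adjusted p.

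The change in CK was also set against the sum of the changes in C and K on the log2 scale. No member (0) departed from the sum by edgeR or DESeq2, whereas 0.0107% of all peaks did by edgeR. At an unadjusted p under 0.05 by edgeR there were 8 members (2.45%), 4 in each direction. The share was 3.73% of all peaks and 2.21% of other promoters. The median departure over the members was -0.0026.

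The median change over Zfp promoters was small and above 0 in both K and CK. It was near the median SE of a member, which was 0.0626 in K and 0.0594 in CK by edgeR. Over the 326 members the median log2 fold change was 0.0621 in K and 0.0602 in CK and -0.0026 in C, and other coding promoters had 0.0603, 0.0617 and -0.0136. Over all peaks the medians were 0.0015, 0.0029 and -0.0003. In K 250 members were above 0 and in CK 233, and 71.5% of members were positive in CK. In each mouse, the median over members of log2 CPM less the WT mean was -0.0212 to 0.0261 in WT, -0.0329 to 0.0255 in C, 0.0182 to 0.122 in K and 0.0239 to 0.100 in CK, so K and CK overlapped the upper end of WT. Within the libraries with Y signal it was 0.00842 and 0.0261 in WT and 0.100 and 0.0676 in CK. Within those without, it was -0.0212 and -0.0206 in WT and 0.0571, 0.0239 and 0.0587 in CK, so that WT and CK did not overlap within either. The K mice with Y signal had 0.122, 0.0182 and 0.0251, of which the last 2 lay below the higher WT mouse with Y signal, and the 1 K mouse without it had 0.0923. In the GC bins the median fell to 0.0332 in K and 0.0203 in CK. The share of fragments in the other coding promoters, given above, was also higher in K and CK, and its part was not tested. The comparisons share the WT libraries.

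**Figure D4:**
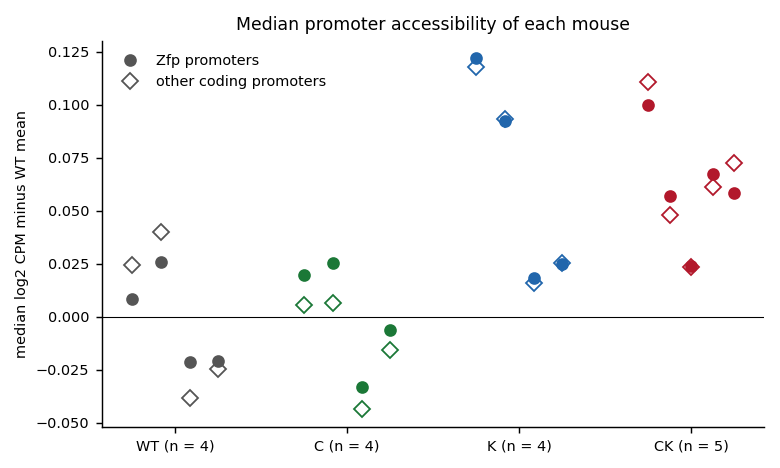
For each mouse, the median over the 326 Zfp promoters (filled circles) and over the 13201 other coding promoters (open diamonds) of log2 CPM less the WT mean, by genotype. Both kinds of promoter move together in each mouse, and the highest Zfp values are 0.122 in K and 0.100 in CK.

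The members varied with GC content, as other promoters did. In the 109 members with the lowest GC (under 51.2%) the median log2 fold change in CK was 0.0413 and 2 were called higher and 2 lower. In the middle range it was 0.0544 with 3 gains of 108, and in the highest range (over 56.7%) it was 0.0869 with 16 gains and no loss of 109, or 14.7%. Other promoters within the same GC limits had medians of -0.0076, 0.0299 and 0.116, with 2.11%, 4.62% and 15.4% called higher. Across members, Spearman's rho between GC content and the log2 fold change in CK was 0.205 (n = 326), and across other promoters 0.42 (n = 13201); the points share their libraries, and no test was made. At low GC, the median of the members less that of the other promoters was -0.0321 to 0.0201 in the WT mice, -0.0104 to 0.0403 in C, 0.0159 to 0.0543 in K and 0.0176 to 0.0694 in CK. The lowest K and CK mice were thus within the WT range. The WT level went with the change as well. The 109 members with the lowest level (under 15.4 CPM per kb) had a median of 0.17 in CK. It was 0.0567 and 0.0175 in the middle and highest ranges (over 29.7 CPM per kb). Of the 21 gains 17 were at the lowest level, and 15.6%, 1.85% and 1.83% of members were called higher by range. Other promoters at those levels had medians of 0.218, 0.0577 and 0.0162, with 19.4%, 6.17% and 0.959% called higher. The WT libraries enter both the level and the change, so these are not independent.

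**Figure D5:**
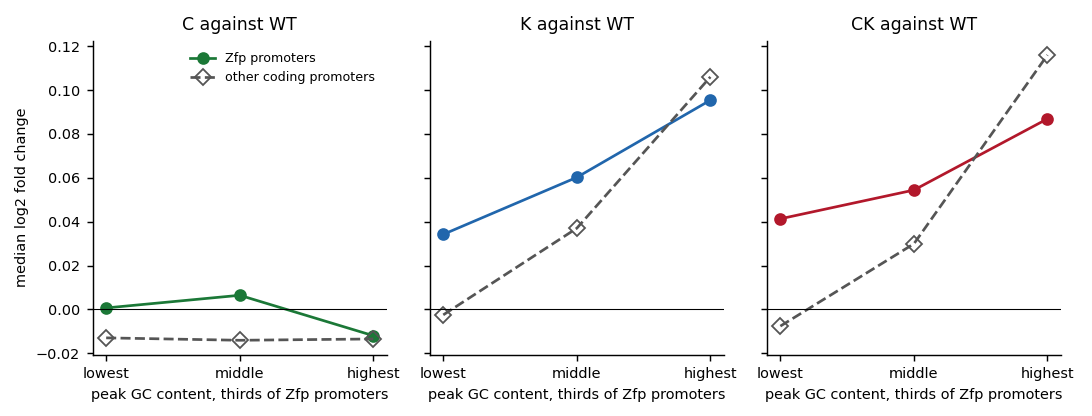
Median log2 fold change against WT in C, K and CK for Zfp promoters (filled) and other coding promoters (open) in 3 ranges of peak GC content that split the Zfp promoters evenly. In CK the Zfp medians run from 0.0413 to 0.0869 and those of the other promoters from -0.0076 to 0.116.

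KRAB-like and other members are set side by side, without a test, since they also differ in GC content. Of the 191 KRAB-like members 8 were higher in CK and 2 lower (4.19% and 1.05%), and of the 135 others 13 were higher and none lower (9.63%). Over all peaks the shares were 3.54% and 3.3%. Of other promoters 9.56% were higher, which is close to the share of the members without the box. A further 1.08% of other promoters were lower, which is close to the 1.05% of KRAB-like members. The median log2 fold changes in CK were 0.0531 in KRAB-like members and 0.0708 in the others, and 67.5% and 77.0% were positive. In clusters with 3 or more other Zfp genes within 200 kb, 5 of 132 members were higher and 2 lower; with 1 or 2, 6 of 68 were higher; and with none, 10 of 126. Among the members with a matched promoter, those with a CCAAT box had a median of 0.0325 in CK and those without 0.0848, and 4 of the 11 gains with a sequence had the box. KRAB-like promoters with CCAATCAG had a median WT level of 28.2 CPM per kb and a median change of 0.0065, and those without had 19.3 CPM per kb and 0.0565. The word ACTACATT divided them little, with 0.0383 and 0.0455.

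The lymphocyte regulators among the genes showed 1 call. The list held Zfp318, which is required for IgD expression, Zfp335, needed in T cell development, Zfp36, which encodes the mRNA decay factor tristetraprolin, Zfp91, a ubiquitin ligase of the NF-kB pathway, the EBF1 partners Zfp423 and Zfp521, and Zfp683. Of their 8 peaks, 1 was higher in CK (Zfp521) and none lower, 3 had an unadjusted p under 0.05, and the median log2 fold change was 0.0766. In CK 28.9% of all peaks and 35.7% of other promoters had an unadjusted p under 0.05, and the counts of this list and of those below are to be read against these shares. Zfp423 went from 7.49 ± 1.21 CPM (n = 4, SD) in WT to 10.0 ± 0.747 (n = 5, SD) in CK, with a log2 fold change of 0.42 (SE 0.118, adjusted p = 0.017 by edgeR), and DESeq2 called it. Zfp318 had 26.9 ± 2.77 CPM (n = 4, SD) in WT and 29.9 ± 2.93 (n = 5, SD) in CK (adjusted p = 0.21 by edgeR). Zfp335 had 102.8 and 98.4 CPM, Zfp91 120.0 and 118.0, and the larger Zfp36 peak 165.4 and 165.9.

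The KRAB proteins known for silencing imprinted loci or retroelements were Zfp57, Zfp445, Zfp568, Zfp708, Zfp809, Zfp819 and Zfp932, with 7 peaks. In CK none (0) was called by edgeR or DESeq2, 3 had an unadjusted p under 0.05 and the median log2 fold change was 0.013. In K 1 was lower, Zfp932. Zfp57, the imprint guardian, and Zfp819 were barely open in WT, at 2.44 and 4.54 CPM per kb. Zfp819 had 1.76 ± 0.441 CPM (n = 4, SD) in WT and 2.56 ± 0.633 (n = 5, SD) in CK (log2 fold change 0.54, SE 0.19, adjusted p = 0.0569 by edgeR). Zfp568, which represses a placental Igf2 transcript, had 30.4 ± 0.53 and 33.3 ± 2.91 CPM (adjusted p = 0.14 by edgeR). Zfp809, which represses retroviral elements, had 37.9 CPM per kb in WT and a log2 fold change of -0.059 in CK (SE 0.0474, adjusted p = 0.448 by edgeR).

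Of the 16 peaks of general transcription and chromatin factors, 2 were higher in CK (Zfp64 and Zfp592) and none lower, with 5 at an unadjusted p under 0.05 and a median of 0.0671. Zfp644, a partner of the G9a methyltransferase complex, had 49.9 ± 4.10 CPM (n = 4, SD) in WT and 56.4 ± 3.10 (n = 5, SD) in CK (log2 fold change 0.18, adjusted p = 0.0296 by edgeR). Zfp609 had 25 ± 1.72 and 29.2 ± 2.07 CPM (0.22, adjusted p = 0.0309). Of the 12 peaks of RNA, spindle and protein quality factors, none (0) was called in CK by edgeR and 4 had an unadjusted p under 0.05. DESeq2 called 1 lower, Zfp207, a spindle assembly protein, which had 41.6 to 43.5 CPM in WT and 36.9, 39.4, 38.0, 38.8 and 37.5 in CK, all below WT (log2 fold change -0.17, SE 0.0463, adjusted p = 0.0124 by edgeR). The next were Zfp451, a SUMO ligase, with 27.2 ± 2.49 CPM (n = 4, SD) in WT and 30.8 ± 1.37 (n = 5, SD) in CK, Zfp326, an elongation factor of the DBIRD complex, with 42.5 ± 2.12 and 47.4 ± 4.57, and Zfp598, a ubiquitin ligase that marks collided ribosomes, with 31.6 ± 1.60 and 35.0 ± 3.23 CPM (adjusted p = 0.0494, 0.092 and 0.144 by edgeR).

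The corepressors through which KRAB proteins act are no members but were read from the same fit. Their 15 genes, which include Trim28, Setdb1, the HP1 genes Cbx1, Cbx3 and Cbx5, and the HUSH complex, had 20 promoter peaks. In CK none (0) was called by edgeR or by DESeq2, 6 had an unadjusted p under 0.05, and the median log2 fold change was 0.0027. Trim28 had 74.9 ± 4.01 CPM (n = 4, SD) in WT and 81.1 ± 3.18 (n = 5, SD) in CK (log2 fold change 0.11, SE 0.0497, adjusted p = 0.129 by edgeR), and Setdb1 had 17 ± 1.51 and 19.5 ± 1.25 (0.20, SE 0.0775, adjusted p = 0.0788). The smallest adjusted p was that of Pphln1, a HUSH subunit, with 42.1 ± 2.93 CPM (n = 4, SD) in WT and 48.5 ± 2.51 (n = 5, SD) in CK (0.21, SE 0.0587, adjusted p = 0.0177 by edgeR); against C, DESeq2 called it higher in CK.

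Among the extremes of WT accessibility, Zfp574, Zfp866 and Zfp446 had log2 fold changes in CK of 0.0058, -0.088 and -0.029, and none was called by edgeR or DESeq2. Zfp947, a KRAB-like gene at 0.992 CPM per kb in WT, had 1.01 (adjusted p = 0.0225 by edgeR), and Zfp991 had too few counts for its value to be read.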

How the data were processed

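Omni-ATAC libraries of sorted GC B cells were processed by the authors with the nf-core ATAC-seq pipeline on mm10, and the deposited values are raw counts of fragments per consensus peak from featureCounts 2.0.1, without normalization. The 7 CB and CC samples of the 24 were not analysed here. Counts were fitted with edgeR 4.0.16 in R 4.3.3 with TMM factors, 1 coefficient per genotype, no covariates and all 17 libraries, and its quasi-likelihood test was run for 7 contrasts with Benjamini-Hochberg adjustment at 0.01. A minimum summed count of 10 removed 0 peaks. Log2 CPM used a prior count of 2, and CPM per kb divided by the peak length. KRAB A-box-like sequences were found with a profile built from 101 Zfp proteins (E value up to 0.001). The script for the test was checked on simulated data. Named were, per mutant, the 5 gains and 5 losses with the lowest adjusted p, up to 3 calls of each other contrast, the 3 most and least accessible members, and 2 to 4 members per list with the lowest p in CK. Other names were added after their values were seen. Members, lists and tests were chosen with earlier results of these data known. Alternatives were DESeq2 1.42.0, other normalizations, GC bins, windows, thresholds, a replicate block, libraries split by Y signal, and leaving out each library. The depth, 17483706 to 21857738 fragments in peaks, limits weak peaks most.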

Additional observations from a re-analysis of the deposited data

Results flagged for a closer look

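In 8 of 112 groups of 4 or 5 libraries, over the 28 named members, 1 library stood apart from the rest by Dixon's criterion, and chance alone gives about 1 in 20 groups. Zfp286 had 5.05 CPM in WT replicate 1, against 3.71 to 3.84 in the other WT mice. WT replicate 1 also stood apart at Zfp991 (0.585 CPM, against 0.0937 to 0.111) and at Zfp574 (90.4, against 93.9 to 94.6). The called Zfp521 peak had 3.59 CPM in C replicate 1, against 2.27 to 2.44. Zfp866 had 82.5 CPM in C replicate 2, against 74.7 to 75.6. Zfp644 had 64.0 CPM in K replicate 1, against 56.3 to 56.7. Zfp207 had 41.6 CPM in WT replicate 4, against 43.3 to 43.5, and 42.0 in C replicate 2, against 38.9 to 39.2. The 2 levels of Zfp932 within CK do not meet this criterion, since 2 of the 5 libraries share the lower one.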

How the results depend on the processing

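For CK against WT, loess offsets gave 28 gains, total counts 27 and a Y covariate 29, each with 2 losses. These included the 21 gains and 2 losses above. Over all peaks the gains went from 2320 to 2574, 2577 and 2823. Size factors from DESeq2 gave 20 gains and 2 losses of members. Adjusted p under 0.05 gave 1 call in C, 16 in K, 65 in CK, 30 for CK against C and 13 for K against C. No share over all peaks is given at that threshold, so these counts cannot be set against a background. DESeq2 gave 6 in K, 12 for CK against C and 5 for K against C. Within libraries with Y signal there was 1 call in CK and 3 for CK against C, and within those without it 11 in CK and 0 for CK against C. The Y covariate gave 11 for CK against C, GC bins 3, and the fold threshold 1, with 10 in CK. Over all peaks, CK against C had 594 higher and 504 lower in the main fit and 1090 and 826 with the Y covariate. That comparison had 128 and 64 within libraries with Y signal and 16 and 36 within those without it. Leaving out 1 library gave 0 calls in C, for CK against K and for the departure from the sum, 1 to 4 in K, 13 to 23 in CK, 2 to 7 for CK against C and 1 to 2 for K against C (2 without CK replicate 1 or 2). Median log2 fold changes over members then ran from -0.00725 to 0.00988 in C, 0.0361 to 0.0753 in K and 0.0455 to 0.0725 in CK; the median in K was 0.124 within libraries without Y signal (1 K mouse) and 0.0299 within those with it, and in the GC bins it was 0.0332 in K and 0.0203 in CK. Directions turned in CK for Zfp991 (0.603 without Y signal, -0.449 to 0.883 when 1 library was left out), Zfp446 (0.00805 with Y signal), Zfp574 (-0.19 in the GC bins, adjusted p = 0.00133 by edgeR, -0.0365 without Y signal, -0.00894 without WT replicate 1, and -0.018 to 0.0228 over all single libraries left out), and in the GC bins for Zfp318 (-0.0443), Zfp644 (-0.0126) and Zfp598 (-0.0474). Of 35 named results, 10 kept their direction and side (called or not called) throughout. Among these 10 only Zfp827 was a call in the main fit, and the rest were never called. The cause of the changes between settings was not tested.

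Same-numbered mice were not treated as pairs in the main fit, and whether they were handled together was not tested. Of 24 pairs of libraries with the same replicate number and different genotypes, 12 had a correlation of deviations over 0.1 (range -0.093 to 0.2239). With the number as a replicate block there were 8 calls in K, 39 in CK (34 higher and 5 lower), 14 for CK against C and 7 for K against C. Over all 65483 peaks the block gave 3167 higher and 3440 lower in CK, against 2320 and 2158 without it. In K it gave 974 and 1172, against 424 and 542. For CK against C the block gave 1342 and 1229 over all peaks, against 594 and 504. For K against C it gave 683 and 728, against 185 and 331.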

Other observations

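Some promoters varied widely between mice of 1 genotype without any call between genotypes. Zfp972, a KRAB-like gene on chromosome 2, had 5.64, 4.23, 3.75 and 9.86 CPM in WT and 4.48, 2.8, 5.71 and 3.82 in C, so its log2 range was 1.39 in WT and 1.03 in C, against medians of 0.159 and 0.138 over members with at least 1000 counts. In K the widest range was that of Zfp663, at 0.913 against a median of 0.185. No call was made at Zfp972, which had 4.95 ± 1.08 CPM (n = 4, SD) in K and 4.99 ± 0.719 (n = 5, SD) in CK. Tandem copies on chromosome 2 share sequence with Zfp972, so how its reads were assigned among copies is uncertain.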
